A study of Mus musculus with 6 samples.

Results

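The serpins, a family of protease inhibitors, were followed in primary mouse hepatocytes as the 63 genes among 57180 in the expression table that are annotated as protein coding and whose name starts with Serpin. Hepatocytes were isolated by collagenase perfusion from male LOXP mice, which carry the floxed STING allele, and from STINGLKO mice, in which Albumin-Cre deletes it in hepatocytes, and the resulting libraries are labelled LOXP and KO (n = 3 libraries per group). Cells of both groups were kept in medium with dexamethasone and serum and received palmitic acid (PA, 0.1 mM), a saturated fatty acid, for 24 h before RNA sequencing. The submitters' design text names as the question whether STING of the liver matters in metabolic dysfunction-associated steatohepatitis (MASH). No library without PA is part of the comparison, male C57BL/6 mice of 8 to 10 weeks were used according to the reporting summary, which gives this for all mice and not for these samples, and no label says that libraries of a group came from separate animals, so p-values measure the spread between these libraries, which may be technical.

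Serpins inhibit proteases by presenting an exposed reactive centre loop as bait. The protease cleaves the loop, which then inserts into the body of the serpin and traps the enzyme in a distorted covalent complex, so each inhibitor molecule is used once and the loop sequence sets which protease is bound. Letters A to I name the clades of the family. The liver secretes most of the plasma serpins, among them inhibitors of neutrophil elastase, of thrombin and the other clotting proteases, of plasmin and of the complement protease C1s, while clade B serpins stay inside cells and protect them from their own or from incoming proteases. Some members inhibit nothing and instead carry hormones or fold collagen. In the mouse, clades A and B hold clusters of closely related copies that correspond to single genes in other mammals.

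The libraries held 14726983 to 18536985 counted reads. Replicates varied beyond counting error, as chi-square values of 7.58 to 16.1 per degree of freedom between pairs of them showed. Sting1, the targeted gene, had 19, 16 and 23 counts in LOXP libraries 1 to 3 and 24, 23 and 15 in KO libraries 1 to 3. Its log2 fold change was -0.08 (standard error, SE, 0.298, 95% confidence interval from -0.76 to 0.60, adjusted p = 0.883), from few counts. The counts of this gene thus showed no loss in KO. They cannot decide whether the label KO holds, because a count per gene does not show which part of the gene was read. By RT-PCR, the paper reports sting mRNA in purified hepatocytes and its loss in knockout cells. "KO" below means the libraries labelled KO. Of the 20 hepatocyte markers listed, 19 were matched, and their summed FPKM was 11640 to 12090 in LOXP and 9945 to 10100 in KO libraries. Of 17 lymphocyte and NK cell markers, 16 had 0 counts in each library. Macrophage and Kupffer cell markers were present, with 16 of 18 tested. Their summed FPKM was 111.5 to 123.8 in LOXP and 95.5 to 105 in KO libraries. LOXP2 stood apart for Serpina7 and some members of clade B, whose values are given with and without it.

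Positions that differ between the copies of a serpin decide to which copy a read is assigned. In the coding alignments of the copies printed below, 155 of 1311 columns varied or held a gap for Serpina1. The same was true of 257 of 1263 columns for Serpina3 and 255 of 1134 for Serpinb9. The 60 coding bases that differ most within each of 3 copy groups are printed here for the copies on which the results turn, in coding direction, with the positions that differ between the copies of the group in capitals. They were read from GENCODE M21 transcripts (build GRCm38), and each lies toward the 3′ end of its coding sequence, the end that in serpins encodes the reactive centre loop. For the Serpina1 copies, which encode the alpha-1-antitrypsins, 18 of these bases varied, and the windows lie on the minus strand at chr12:103853756-103853815 (Serpina1a, exon 6), chr12:103728323-103728382 (Serpina1b, exon 5), chr12:103895093-103895152 (Serpina1c, exon 5), chr12:103763761-103763820 (Serpina1d, exon 5) and chr12:103947099-103947158 (Serpina1e, exon 5).
Serpina1a: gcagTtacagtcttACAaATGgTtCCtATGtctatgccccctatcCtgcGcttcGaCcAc
Serpina1b: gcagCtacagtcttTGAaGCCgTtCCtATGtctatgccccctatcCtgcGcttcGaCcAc
Serpina1c: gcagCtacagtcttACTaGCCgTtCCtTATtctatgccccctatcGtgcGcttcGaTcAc
Serpina1d: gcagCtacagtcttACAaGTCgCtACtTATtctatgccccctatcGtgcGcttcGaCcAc
Serpina1e: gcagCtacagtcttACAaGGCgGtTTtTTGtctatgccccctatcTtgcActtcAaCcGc

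The 3 Serpina3 copies with high expression varied at 25 of 60 bases. Their windows lie in exon 5 on the plus strand of chromosome 12, at chr12:104345266-104345325 (Serpina3k), chr12:104393766-104393825 (Serpina3m) and chr12:104413445-104413504 (Serpina3n).
Serpina3k: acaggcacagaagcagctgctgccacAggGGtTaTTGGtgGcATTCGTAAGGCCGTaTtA
Serpina3m: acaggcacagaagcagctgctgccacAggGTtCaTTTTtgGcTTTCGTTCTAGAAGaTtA
Serpina3n: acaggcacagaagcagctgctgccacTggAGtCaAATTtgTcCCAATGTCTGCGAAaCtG

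The 4 Serpinb9 copies shown varied at 26 of 60 bases. Their windows lie on the plus strand at chr13:33015726-33015785 (Serpinb9, exon 8), chr13:33202962-33203021 (Serpinb9d, exon 7), chr13:33260010-33260069 (Serpinb9e, exon 7) and chr13:33334530-33334589 (Serpinb9f, exon 7).
Serpinb9: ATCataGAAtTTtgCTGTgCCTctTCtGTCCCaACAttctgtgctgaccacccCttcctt
Serpinb9d: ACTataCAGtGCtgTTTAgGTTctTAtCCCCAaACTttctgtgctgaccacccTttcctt
Serpinb9e: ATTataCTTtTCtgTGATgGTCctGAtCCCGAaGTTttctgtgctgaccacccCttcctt
Serpinb9f: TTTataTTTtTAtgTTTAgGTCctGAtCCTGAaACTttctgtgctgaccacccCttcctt

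Outside these windows the copies were more alike. The coding sequences of Serpina1b and Serpina1e were 96.3% identical, those of Serpina3k and Serpina3n 82.6%, those of Serpina3k and Serpina3m 91.0%, those of Serpinb9 and Serpinb9e 81.7%, and those of Serpinb9f and Serpinb9g 98.7%. Of all stretches of 150 bases, the length of a read, in the transcript of Serpina1c, 50.5% also occurred in another gene's transcript, compared with 40.7% for Serpina1a, 23.3% for Serpina1d, 16.4% for Serpina1b and 7.57% for Serpina1e. The share was 38.6% for Serpinb9f and 30.9% for Serpinb9g, but only 2.03% for Serpinb9e, 1.18% for Serpinb9d, 0.331% for Serpina3m and 0.262% for Serpina3k, and Serpina3n and Serpinb9 shared none. The gene models of Serpina1b and Serpina3m also span those of Serpina1d and Serpina3k. How reads that fit several genes were counted is not given in the sources used here. Single values of the Serpina1 copies and of Serpinb9f and Serpinb9g are therefore uncertain, as are those of Serpina3k and Serpina3m, whose models overlap. Sums over copies are given beside them.

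As a family, the serpins were lower in the KO libraries. They took 1.40%, 1.45% and 1.46% of all counts in LOXP libraries 1 to 3 and 1.13%, 1.14% and 1.14% in KO libraries 1 to 3, so that each KO library was below each LOXP library. The summed level was 14606 ± 476 CPM (counts scaled to TMM library sizes, SD, n = 3) in LOXP and 11271 ± 149 in KO, a log2 ratio of -0.37 (p = 0.1 in an exact permutation test, two-sided, which cannot go lower with 3 against 3 libraries). Of the 63 genes, 33 passed the filter on low counts and were tested with edgeR's quasi-likelihood test, and the adjusted p-values given for genes come from it unless another test is named, adjusted by Benjamini-Hochberg across the 14151 genes of the fit. Of these 33, 17 were lower and 4 were higher in KO at an adjusted p under 0.05, which is 51.5% and 12.1%, compared with 11.6% lower and 11.5% higher over all genes tested (23.1% in either direction), and 2 were higher without KO3. The median log2 fold change was -0.40 over the 33 tested serpins and -0.00 over all genes tested. In bulk RNA, fewer cells of a type and less RNA per cell cannot be told apart. Of the 19 hepatocyte markers, 14 were lower as well and 1 was higher, with a median log2 fold change of -0.45. The part of that shift in the serpin values was not tested.

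By the 3 criteria of the study's methods, which ask for a mean FPKM over 1 in either group and an adjusted p below 0.05 with a log2 fold change beyond 1 up or down, 4 serpins were lower (Serpina10, Serpina12, Serpina3n and Serpina7) and 2 were higher (Serpinb9e and Serpinb9f), where the background over all tested genes was 2.05%, with 1.49% lower and 0.558% higher. Both higher genes met the FPKM criterion through the KO group alone. Serpinb9e had a mean FPKM of 0.202 in LOXP and 1.63 in KO, and Serpinb9f 0.673 and 1.52. Their count is thus not independent of the group in which they are high. Without KO1 only 2 were lower by these criteria, and 1 was higher without LOXP3, KO1 or KO3. The 30 genes that were not tested comprised 19 with 0 counts in all 6 libraries, where a count of 0 allows up to 3 counts per library, and 11 with at most 49 counts over the 6 libraries together. They included Serpina5, the protein C inhibitor, with 8 counts in all, the neuronal inhibitor Serpini1 with 1 count, and all 4 Serpinb3 copies with 0 counts. Expression per length was highest for Serpina1e in LOXP, with a mean FPKM of 1561, and for Serpina3k in KO, with 1433. Serpina3k was at 1214 in LOXP, and the other 4 Serpina1 copies had LOXP means from 547.9 (Serpina1d) to 895.0 (Serpina1b).

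**Figure D1:**
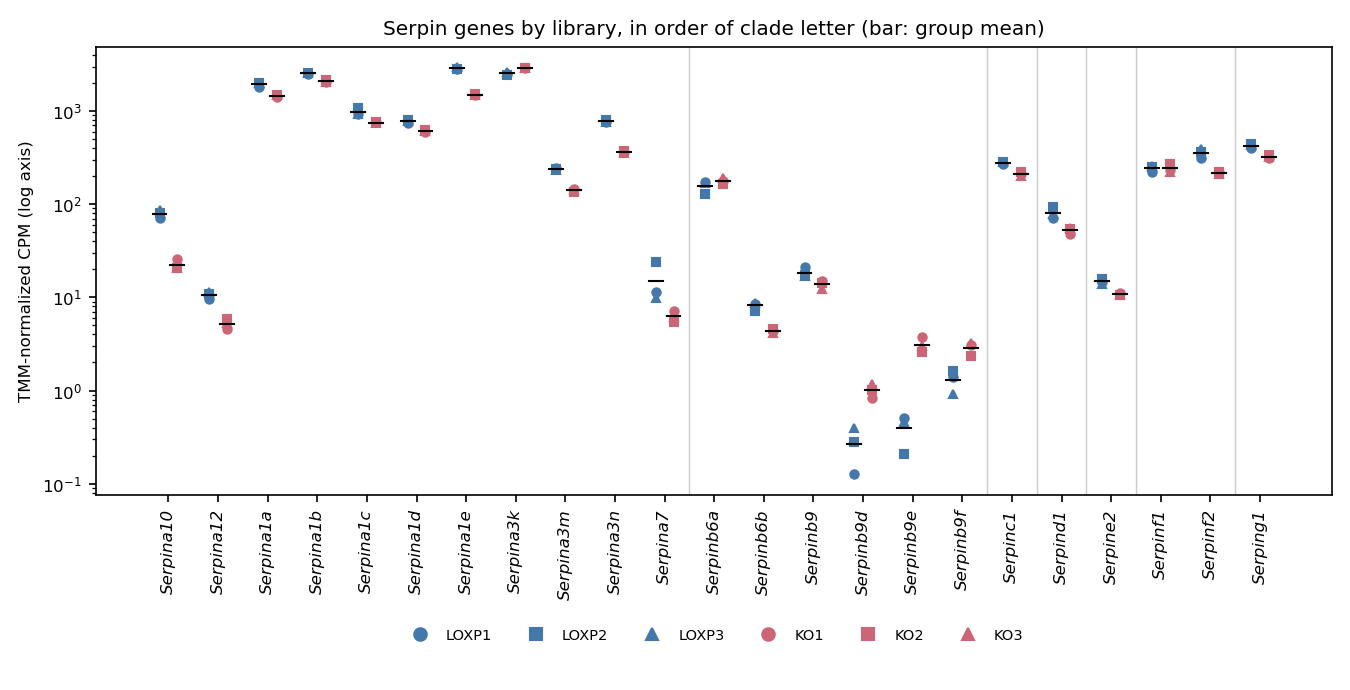
TMM-normalized CPM on a log axis for 23 serpins that passed an adjusted p of 0.05 or reached a mean FPKM of 10, in order of clade letter, with 1 symbol per library (LOXP blue, KO red) and a bar at each group mean. For Serpina7, LOXP2 lies above the other libraries at 23.9 CPM, and the LOXP symbols of Serpinb9d and Serpinb9e, with at most 8 counts each, are also spread widely on the log axis.

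The plot of levels by library shows how tight the groups were for the abundant members, and clade A made up most of the family's counts. Its 24 genes summed to 12795 ± 292 CPM in LOXP and 9889 ± 104 CPM in KO (log2 ratio -0.37, exact permutation p = 0.1). Of its 14 tested genes 10 were lower and 1 was higher, compared with 11.6% and 11.5% over all genes tested. Clade A holds the alpha-1-antitrypsins, the antichymotrypsin-like Serpina3 genes, inhibitors of clotting proteases and the hormone carriers.

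The Serpina1 genes encode alpha-1-antitrypsin, the main plasma inhibitor of neutrophil elastase. A sum over the copies does not depend on how reads were split among them. It does depend on whether reads that fit several genes were counted at all, which is not known. The expressed copies also share 150-base stretches with Gm8893, which is outside the sum. Summed, Serpina1 was at 8829, 9274 and 9246 CPM in LOXP libraries 1 to 3 and at 6336, 6557 and 6359 CPM in KO libraries 1 to 3. The KO libraries were all below the LOXP libraries, and the sum fell by 0.51 on the log2 scale (SE 0.0419, adjusted p = 1.59e-04 in a fit over 14138 genes with copies summed, in which 11.5% of all genes were lower and 23.0% moved in either direction). Each of the 5 expressed copies was called lower. Serpina1a was at 1819, 1996 and 1997 CPM in LOXP and 1425, 1491 and 1474 in KO, Serpina1b at 2471, 2586 and 2577 against 2059, 2158 and 2055, Serpina1c at 940.6, 1079 and 935.8 against 761.9, 755.2 and 736.3, and Serpina1d at 738.0, 794.9 and 791.0 against 593.5, 631.1 and 605.0. These 4 copies moved by similar amounts, with log2 fold changes of -0.40, -0.28, -0.39 and -0.35 and adjusted p-values from 0.00116 to 0.00325.

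Serpina1e (ENSMUSG00000072849, chromosome 12, 103913190 to 103925234 in the deposited table) fell further than its neighbours. It was at 2859, 2818 and 2945 CPM in LOXP libraries 1 to 3 and at 1497, 1521 and 1490 CPM in KO libraries 1 to 3. LOXP and KO were separated by a gap far wider than the spread within either group, and the log2 fold change was -0.94 (SE 0.0418, adjusted p = 5.59e-06). As a share of all Serpina1 counts, Serpina1e went from 31.5% ± 1.03 (SD, n = 3) in LOXP to 23.4% ± 0.214 in KO, while Serpina1b went from 27.9% ± 0.0646 to 32.6% ± 0.313 (exact permutation p = 0.1 for each). The ratio of Serpina1e to Serpina1b counts was 1.16, 1.09 and 1.14 in the LOXP libraries and 0.727, 0.705 and 0.725 in the KO libraries. Per length, Serpina1e had the highest mean FPKM of the copies in both groups, 1561 in LOXP and 836.4 in KO, with Serpina1b next at 895.0 and 753.6. Serpina1e is the copy that shares the fewest 150-base stretches with the others.

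**Figure D2:**
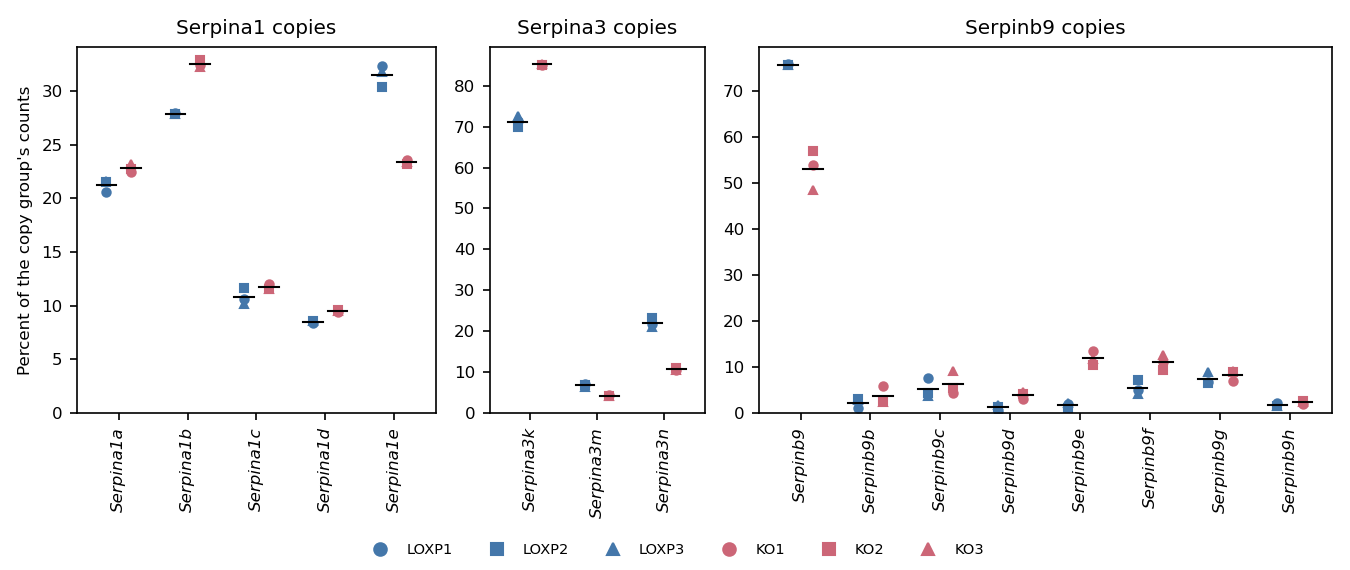
Percent of each copy group's counts taken by each copy, for the Serpina1, Serpina3 and Serpinb9 genes, with 1 symbol per library (LOXP blue, KO red) and a bar at each group mean. Serpina1e falls from 31.5% to 23.4%, Serpina3k rises from 71.3% to 85.3% and Serpinb9e rises from 1.60% to 11.8%, and in these 3 cases the groups do not overlap.

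Copies of the Serpina3 group were called in opposite directions, as the plot of copy shares also shows. Human alpha-1-antichymotrypsin, an acute phase inhibitor of cathepsin G, corresponds to this mouse cluster, of which Serpina3n encodes an inhibitor induced in the acute phase and Serpina3k a kallikrein-binding inhibitor. Serpina3n was at 763.7, 811.0 and 766.6 CPM in LOXP libraries 1 to 3 and at 359.8, 370.1 and 354.1 CPM in KO libraries 1 to 3, with no overlap and a log2 fold change of -1.11 (SE 0.0485, adjusted p = 5.10e-06). Serpina3m fell too, from 245.9, 237.8 and 230.1 CPM to 146.7, 135.0 and 143.2 CPM, a log2 fold change of -0.75 (adjusted p = 9.13e-05).

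The most abundant copy went the other way. Serpina3k was at 2513, 2437 and 2646 CPM in LOXP libraries 1 to 3 and at 2923, 2898 and 2928 CPM in KO libraries 1 to 3. Each KO library lay above each LOXP library, but the rise was small, 0.20 on the log2 scale (SE 0.0455, adjusted p = 0.0144), and without LOXP2 its adjusted p was 0.0510. Serpina3k thus took 71.3% ± 1.37 of the Serpina3 counts in LOXP and 85.3% ± 0.156 in KO, Serpina3n went from 22.0% ± 1.14 to 10.6% ± 0.279, and Serpina3m from 6.70% ± 0.345 to 4.14% ± 0.158 (exact permutation p = 0.1 for each). With the 10 copies summed, these opposite changes left 3552 ± 81.9 CPM in LOXP and 3420 ± 14.6 CPM in KO, a log2 fold change of -0.05 with a 95% confidence interval from -0.15 to 0.04 (adjusted p = 0.382). Of the other copies, Serpina3g was tested and not called (log2 fold change -0.59, adjusted p = 0.472), and 6 were not tested.

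Among the clade A inhibitors of clotting, Serpina10 was tested, whereas Serpina5 had too few counts. Serpina10 encodes the protein Z-dependent inhibitor of activated factor X. Serpina10 (ENSMUSG00000061947, chromosome 12, 103581045 to 103597703) was at 70.7, 80.0 and 86.4 CPM in LOXP libraries 1 to 3 and at 25.6, 20.7 and 20.9 CPM in KO libraries 1 to 3. The KO level was 0.283 times the LOXP level, a log2 fold change of -1.82 (SE 0.111, adjusted p = 3.88e-05), the largest fall of any tested serpin. Serpina12 encodes vaspin, a secreted inhibitor known as an adipokine. It was at 9.59, 10.8 and 11.3 CPM in LOXP and at 4.53, 5.83 and 5.25 CPM in KO, again without overlap (log2 fold change -1.02, standard error 0.144, adjusted p = 0.00181).

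The hormone carriers of clade A were expressed at low levels. Serpina7 encodes thyroxine-binding globulin, which carries thyroid hormone in plasma and inhibits no protease. It was at 11.4, 23.9 and 9.74 CPM in LOXP libraries 1 to 3 and at 7.08, 5.45 and 6.18 CPM in KO libraries 1 to 3. The groups did not overlap, but LOXP2 was far above the other libraries, and the log2 fold change was -1.27 with all libraries (SE 0.321, adjusted p = 0.0237) and -0.77 without LOXP2 (adjusted p = 0.0157). Without KO1, KO2 or KO3 its adjusted p was 0.0538, 0.0842 and 0.0705. Serpina6, the corticosteroid-binding globulin, stayed between 0.642 and 0.922 CPM in all libraries (log2 fold change -0.40, adjusted p = 0.388). Serpina11 was at 19.4 to 22.8 CPM in LOXP and 16.4 to 17.9 CPM in KO, and its log2 fold change of -0.29 had an adjusted p of 0.0581. Agt, which encodes angiotensinogen, a non-inhibitory serpin by structure that does not carry the family name, had a log2 fold change of -0.37 and was lower (adjusted p = 0.0169).

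**Figure D3:**
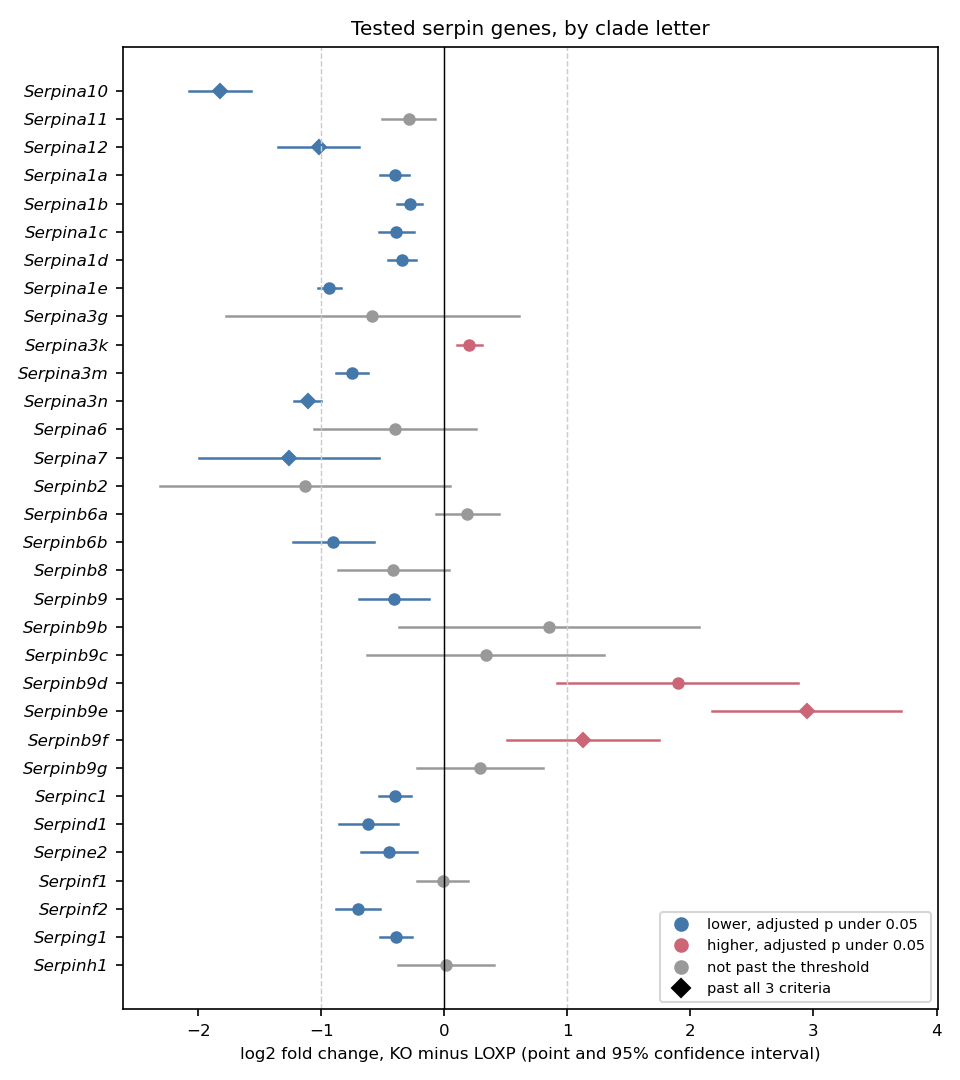
Log2 fold change, KO minus LOXP, of 32 tested serpins in order of clade letter, with the 95% confidence interval of edgeR's quasi-likelihood fit as a line. Genes called lower are blue, genes called higher red and genes not past the threshold grey, and diamonds mark the 6 genes past all 3 criteria, from Serpina10 at -1.82 to Serpinb9e at 2.94.

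As the plot of fold changes shows, clade B held calls in both directions. These are intracellular serpins. Of its 28 genes 11 were tested, 2 were lower and 3 were higher, and 13 had 0 counts. Over all genes tested, 11.6% were lower and 11.5% higher, and counts this small were not tested against those shares. Of the 3 higher genes, Serpinb9d and Serpinb9e passed the filter on low counts through the KO libraries alone, with fewer than 10 counts in each LOXP library. When no gene with a count was filtered out, their adjusted p-values were 0.0286 and 0.00123. The clade sum was at 213.9, 166.2 and 208.5 CPM in LOXP libraries 1 to 3 and at 215.9, 200.7 and 225.3 CPM in KO libraries 1 to 3, and the groups overlapped (log2 ratio 0.12, or 0.02 without LOXP2, exact permutation p = 0.4 with all libraries). Most of that sum was Serpinb6a, an intracellular inhibitor of cathepsin G, which was at 171.0, 127.3 and 170.8 CPM in LOXP and 177.4, 166.5 and 190.3 CPM in KO (log2 fold change 0.19, 95% confidence interval from -0.07 to 0.45, adjusted p = 0.279, and 0.06 without LOXP2). Its copy Serpinb6b fell from 8.58, 7.203 and 8.76 CPM to 4.40, 4.59 and 4.14 CPM (log2 fold change -0.90, standard error 0.143, adjusted p = 0.00311). The ratio of Serpinb6b to Serpinb6a counts was 0.0527 ± 0.00342 in LOXP and 0.0247 ± 0.00290 in KO, without overlap (exact permutation p = 0.1).

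Serpinb9 encodes an intracellular inhibitor of granzyme B, and its mouse copies lie next to it on chromosome 13. Serpinb9e (ENSMUSG00000062342, chromosome 13, 33433595 to 33444833) was at 0.505, 0.210 and 0.461 CPM in LOXP libraries 1 to 3, from 8, 3 and 7 counts, and at 3.76, 2.59 and 2.97 CPM in KO libraries 1 to 3, from 59, 48 and 51 counts. Each KO library was several times above each LOXP library, with a log2 fold change of 2.94 (SE 0.337, adjusted p = 6.80e-04). Serpinb9d rose from 2, 4 and 6 counts to 13, 19 and 20 counts (log2 fold change 1.90, standard error 0.429, adjusted p = 0.0152), and its adjusted p was 0.0518 without KO2 and 0.0576 without KO3. Serpinb9f rose from 1.39, 1.61 and 0.922 CPM to 3.06, 2.32 and 3.21 CPM (log2 fold change 1.13, standard error 0.269, adjusted p = 0.0188), and its adjusted p was 0.0572 without LOXP3, 0.0604 without KO1 and 0.0649 without KO3.

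Serpinb9 itself, the most abundant copy per length, was at 21.1, 17.3 and 16.9 CPM in LOXP and at 14.98, 14.3 and 12.4 CPM in KO. Its groups did not overlap, but its log2 fold change of -0.41 (adjusted p = 0.0449) was near the threshold, and leaving out any 1 of the 6 libraries gave adjusted p-values from 0.0567 to 0.137. Serpinb9 went from 75.6% ± 0.105 of the Serpinb9 counts in LOXP to 53.1% ± 4.34 in KO and Serpinb9e from 1.60% ± 0.601 to 11.8% ± 1.60 (exact permutation p = 0.1 for each). The sum over the 8 copies was 24.4 ± 3.01 CPM in LOXP and 26.2 ± 1.48 CPM in KO, with a log2 fold change of 0.10 (95% confidence interval from -0.14 to 0.34, adjusted p = 0.535). Serpinb9b, Serpinb9c and Serpinb9g were not called (adjusted p = 0.295, 0.618 and 0.404), and neither were Serpinb2, the intracellular plasminogen activator inhibitor, and Serpinb8 (adjusted p = 0.154 and 0.168). Serpinb2 had a log2 fold change of -1.13, or -0.41 without LOXP2, which was at 3.50 CPM against 1.07 and 1.25 CPM in the other LOXP libraries.

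**Figure D4:**
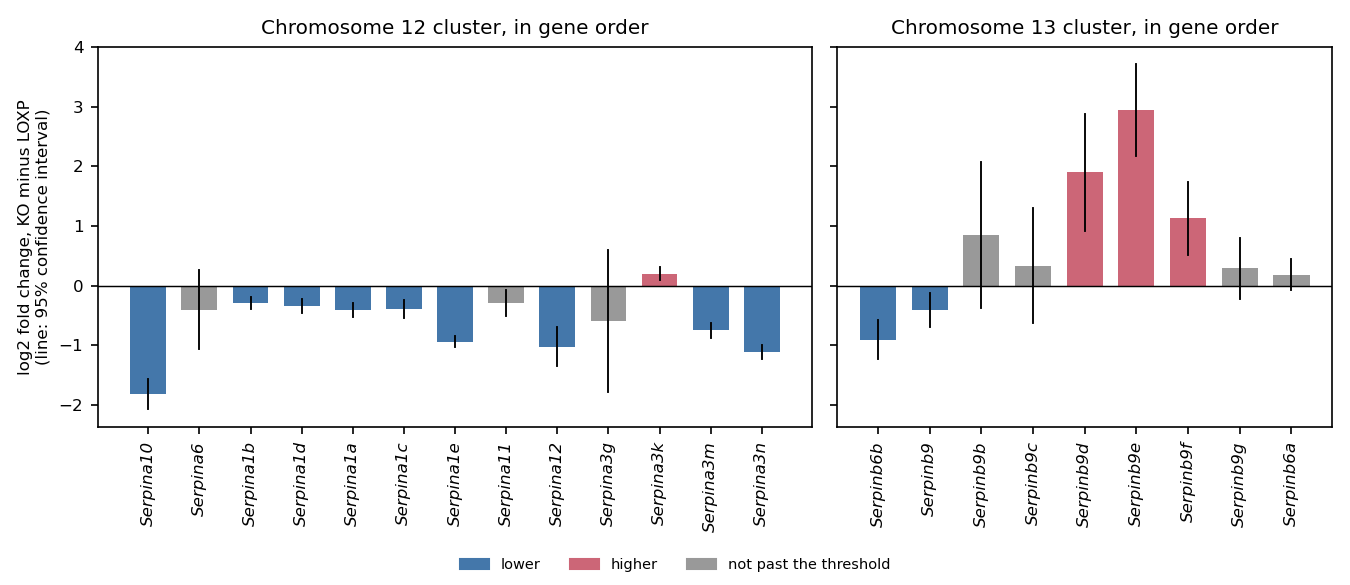
Log2 fold change, KO minus LOXP, of the tested serpins of the chromosome 12 and chromosome 13 clusters in the order of their gene starts, with the 95% confidence interval as a line. On chromosome 12 9 of 13 tested genes were lower and 1 was higher, where 11.6% of all genes tested were lower and 11.5% higher. On chromosome 13 the 3 higher genes, Serpinb9d, Serpinb9e and Serpinb9f, are neighbours among the tested genes.

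The gene order plotted for both clusters shows calls of either sign in each. On chromosome 12, between 103581045 and 104380588, 23 members were annotated, of which 13 were tested, and Serpina3k, the only gene called higher there, overlaps the model of Serpina3m and precedes Serpina3n, both lower. On chromosome 13, between 33026075 and 34186777, 16 members were annotated and 9 tested, with Serpinb6b and Serpinb9 lower and Serpinb9d, Serpinb9e and Serpinb9f higher, and the uncalled Serpinb9b and Serpinb9c between them. These positions are those of the deposited table, whose processing notes name the build GRCm39. Chromosome 1 held 14 members, of which 4 were tested and 2 were lower. Beside these counts, 11.6% of all genes tested were lower and 11.5% higher.

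The plasma inhibitors of clotting and complement outside clade A were lower, each without overlap between groups. Serpinc1 encodes antithrombin, the main inhibitor of thrombin, and was at 267.2, 282.4 and 286.2 CPM in LOXP libraries 1 to 3 and at 211.5, 220.1 and 201.6 CPM in KO libraries 1 to 3 (log2 fold change -0.40, standard error 0.0561, adjusted p = 0.00175). Serpind1, heparin cofactor II, went from 71.9, 93.1 and 78.5 CPM to 48.3, 54.3 and 55.8 CPM (log2 fold change -0.62, standard error 0.105, adjusted p = 0.00426). Serping1 encodes the C1 inhibitor, which blocks C1r, C1s and plasma kallikrein, and went from 399.5, 440.9 and 437.2 CPM to 316.9, 338.0 and 318.0 CPM (log2 fold change -0.39, standard error 0.0573, adjusted p = 0.00210). Over all genes tested, 20.3% lay lower and 20.4% higher in KO without overlap, compared with 20 and 4 of the 33 tested serpins.

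The pair of clade F genes are neighbours on chromosome 11, and their ratio changed. Serpinf2 encodes alpha-2-antiplasmin, the main inhibitor of plasmin, and was at 317.0, 363.4 and 387.1 CPM in LOXP libraries 1 to 3 and at 224.2, 222.6 and 208.5 CPM in KO libraries 1 to 3 (log2 fold change -0.70, standard error 0.0772, adjusted p = 5.61e-04). Serpinf1 encodes PEDF, a secreted non-inhibitory serpin that restrains vessel growth, and was at 220.7, 252.9 and 259.1 CPM in LOXP and at 231.1, 272.2 and 222.8 CPM in KO. Its groups overlapped, and its log2 fold change of -0.01 had a 95% confidence interval from -0.22 to 0.20 (adjusted p = 0.939). The ratio of Serpinf2 to Serpinf1 counts was 1.44, 1.44 and 1.49 in the LOXP libraries and 0.970, 0.818 and 0.936 in the KO libraries, without overlap (exact permutation p = 0.1).

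Serpine2 of clade E, protease nexin 1, a cell surface inhibitor of thrombin, fell from 14.8, 15.8 and 13.96 CPM to 11.2, 10.6 and 10.7 CPM (log2 fold change -0.45, standard error 0.100, adjusted p = 0.0137), and its adjusted p was 0.0530 without KO2. Serpinh1, the collagen chaperone of clade H, was at 8.67 to 9.59 CPM in LOXP and 7.06 to 11.1 CPM in KO (log2 fold change 0.02, adjusted p = 0.963).

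Proteases that serpins inhibit were counted from a list that includes clotting, fibrinolytic, complement and lysosomal enzymes. Of 28 tested target proteases, 17 were lower and 1 was higher (F3, the tissue factor gene listed with them, log2 fold change 0.28), with a median log2 fold change of -0.42, where 11.6% of all genes tested were lower and 11.5% higher. The same background applies to the lists that follow. C1s1, the complement protease held by the C1 inhibitor, went from 346.7 to 178.7 CPM (log2 fold change -0.96, adjusted p = 3.88e-05), Masp1, a protease of the lectin pathway, from 71.8 to 37.4 CPM (log2 fold change -0.94), and F7, coagulation factor VII, from 36.9 to 21.6 CPM (log2 fold change -0.77). The most abundant of them per length, the lysosomal protease Ctsb, was at 183.2 FPKM in LOXP and 163.5 in KO (log2 fold change -0.20, adjusted p = 0.0381). Gzma, Gzmb and Ctsg, targets of clade A and B serpins made by leukocytes, had 0 counts in each library.

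Of 24 tested protease inhibitors outside the family, 15 were lower and 2 higher (Slpi and Timp1), with a median log2 fold change of -0.37. Itih4, a plasma protein of the inter-alpha-trypsin inhibitor family, fell by 1.44 on the log2 scale from 1779 to 654.2 CPM, Ahsg, which encodes fetuin-A, by 1.31 and Mug2, a murinoglobulin of the alpha-2-macroglobulin family, by 1.23 (adjusted p = 1.20e-06, 3.88e-05 and 4.47e-05). Cstb, the intracellular cystatin B and the most abundant per length, had a log2 fold change of -0.15 (adjusted p = 0.0365). Of 15 tested cofactors and clearance receptors of serpin complexes, 3 were lower and 3 higher, with a median of -0.00, which in a list of this size is near the background of 11.6% and 11.5%. Plaur, the urokinase receptor, rose from 122.3 to 253.3 CPM (log2 fold change 1.05), while Vtn, the matrix protein vitronectin and the most abundant of this list per length, fell by 0.60.

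Of 18 tested liver transcription factors and acute phase signalling genes, 4 were lower and 1 was higher (Foxa1), beside 11.6% and 11.5% over all genes tested, with a median log2 fold change of -0.16. The 3 with the smallest adjusted p were all lower. Hnf4a, a nuclear receptor that maintains hepatocyte gene expression, fell by 0.59 on the log2 scale from 284.9 to 188.9 CPM (adjusted p = 3.38e-04), the bile acid receptor Nr1h4 by 0.54 and the growth hormone receptor Ghr by 0.37. Cebpb, the most abundant per length, had a log2 fold change of 0.12 (adjusted p = 0.668). Markers of other liver cells were counted in the same fit. The 13 tested stellate cell markers had adjusted p-values of 0.126 (Col3a1) or more, 1 of 14 endothelial markers was lower (Stab2) and 2 of 16 macrophage markers were lower (Cd68 and Mpeg1). Of the 5 tested cholangiocyte markers, 3 were lower (Spp1, Cldn4 and Sox9) and 1 was higher (Krt19), and the list's summed FPKM was 123.6 to 144.7 in LOXP and 65.7 to 77.0 in KO. Their part in the serpin values was not tested.

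Copies that moved by different amounts had closely similar promoters. RefSeq promoters (build GRCm38.p6, from 250 bases before to 50 bases after the annotated start) were found for 54 of the 63 genes and for 27 of the 33 tested. Those of Serpina1b (chr12:103738140-103738439, minus strand), whose gene had the smallest change of the group, and of Serpina1e (chr12:103956848-103957147, minus strand), which had the largest, are printed with matches to an HNF1 motif (GTTAAT) and a C/EBP motif (TTGCNNAA) in capitals.
Serpina1b promoter: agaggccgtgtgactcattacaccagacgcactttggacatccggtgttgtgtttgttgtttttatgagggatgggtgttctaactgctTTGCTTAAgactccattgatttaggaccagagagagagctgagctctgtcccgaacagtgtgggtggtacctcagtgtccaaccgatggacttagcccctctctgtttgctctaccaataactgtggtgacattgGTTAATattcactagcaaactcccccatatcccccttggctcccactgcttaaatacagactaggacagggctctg
Serpina1e promoter: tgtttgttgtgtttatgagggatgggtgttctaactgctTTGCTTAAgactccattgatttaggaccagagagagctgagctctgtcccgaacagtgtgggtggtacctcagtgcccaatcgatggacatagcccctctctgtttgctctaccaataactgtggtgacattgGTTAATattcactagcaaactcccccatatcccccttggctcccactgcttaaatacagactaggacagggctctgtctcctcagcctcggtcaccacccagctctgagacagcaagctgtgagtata

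Over the 250 aligned columns in which they overlap, both promoters were 97.6% identical, and both motifs were present in each, on the plus strand of the window and at other distances from the annotated start, which differs between the gene models. Motifs were searched on both strands and no bases were shared by 2 motifs in the promoters printed. Of the 27 tested genes with a promoter, 14 were called lower, 3 were called higher and 10 were not called. The HNF1 motif, part of the site for a liver transcription factor, occurred in 7 of the 27 promoters, 6 of them of genes called lower (Serpina1a to Serpina1e and Serpina7), and in 7.10% of all RefSeq promoters of this length (8.24% of genes). C/EBP matches occurred in 8 of 27, 7 of them of genes called lower, and in 10.8% of all promoters (12.2% of genes). A STAT motif (TTCNNNGAA) occurred in 5, none of a called gene, and in 8.30% of all promoters (9.55% of genes), and an interferon-stimulated response element (ISRE) in 2, Serpinb9 and Serpinb6a, and in 3.44% of all promoters (3.99% of genes). The 5 Serpina1 promoters were 91.4% to 97.6% identical to each other and are not independent. These matches are descriptions of letters in a window and were not tested for binding.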

How the data were processed

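RNA of 6 libraries, 3 labelled LOXP and 3 labelled KO, was compared, with groups taken from the sample labels. The authors sequenced 150-base read pairs and mapped them with HISAT2, and the submitters' processing notes also name fastp, StringTie, edgeR and the build GRCm39, while the annotation, counting tool, strand setting and handling of reads that fit several genes are not given in the sources used here. The authors deposited 1 table with a whole-number read count, not normalized, and an FPKM value, scaled for gene length and library total, for each of 57180 genes in each library, of which 525 have no name.

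Differential expression was tested on the counts with edgeR 4.0.16 in R 4.3.3 (filterByExpr by group with a minimum count of 10, TMM, quasi-likelihood test, two-sided, Benjamini-Hochberg over the 14151 genes tested, threshold 0.05), and CPM were computed from counts and TMM library sizes. A second fit over 14138 genes summed copies whose symbols differ by a trailing letter. Clade sums, copy shares and copy ratios were compared with exact two-sided permutation tests. Fits were tested on simulated data. FPKM served for levels between genes, for the mean FPKM criterion and for an alternative with limma 3.58.1. Alternatives also used DESeq2 1.42.0. Copies were aligned with MAFFT 7.526 on GENCODE M21 transcripts. Values in every library are given for members with an adjusted p under 0.05 or a mean FPKM of at least 10 in a group. From each list of proteases, inhibitors, cofactors and regulators, the 3 genes with the smallest adjusted p and the most abundant were chosen. These are given by group mean or fold change, except where left out. Agt and the genes called in the smaller direction of a list were named after their values were seen, as were the Serpina1 promoters chosen. The members and lists were chosen with earlier results of these data known. Deviations of same-numbered libraries of the 2 groups were weakly correlated, at 0.146, 0.0719 and 0.0339. Plots were made in Python 3.11.15 (matplotlib 3.10.9). Depths of 14726983 to 18536985 counts limit genes with few counts, and the floor of 3 counts covers counting error only. Results for some genes are left out here.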

Additional observations from a re-analysis of the deposited data

How the results depend on the processing

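When each library in turn was omitted, the number of tested serpins called lower ran from 14 to 17 and higher from 2 to 4, and those past all 3 criteria from 2 to 4 lower and from 1 to 2 higher. Of the 17 lower genes 14 were called in every setting run. Of the 4 higher genes, Serpinb9e was called in each setting but the stricter filter, which did not test it, and the other 3 lost the call in at least 1 setting. With at least 10 counts required in every library, 2 serpins were higher, 1 of them past all 3 criteria, since fewer genes with few counts were tested. With limma-trend on log2(FPKM + 1), 2 serpins were lower and 1 was higher past all 3 criteria, on a scale that understates the change of low genes. The sign turned for the uncalled gene Serpinf1, which went to 0.0203 with limma-trend on log2(FPKM + 1) and 0.0205 on log2(FPKM + 0.1), and ran from -0.11 without KO2 to 0.0460 without KO3, above 0 without LOXP2, LOXP3 or KO1 too. The cause was not tested. Of the named genes set against the alternatives, 280 comparisons kept direction and side of the threshold and 20 the direction but not the side of the threshold, and all 54 of copy sums kept both. Correlations of deviations from the group means between same-numbered libraries were 0.146, 0.0719 and 0.0339, so the numbers were not taken to pair libraries, and with the replicate number as a block 17 serpins were lower and 4 higher, as without it. Genes with few counts, such as Serpinb9d with 2 to 20 per library, are limited by depth.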

Other observations

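Other rows of the table carry a serpin name without being annotated as protein coding. Of these 7 rows, the pseudogene Serpina3d-ps was the only one tested. It had 57, 76 and 40 counts in LOXP libraries 1 to 3 and 22, 40 and 31 in KO libraries 1 to 3, and its log2 fold change was -1.09 (SE 0.298, adjusted p = 0.0316). It was named after its values were seen. The groups did not overlap in CPM, at 2.63 to 5.32 in LOXP and 1.40 to 2.16 in KO.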
